A study of Homo sapiens with 6 samples.

Results

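Epithelial and mesenchymal marker genes were followed in the RNA of HepG2 cells that carried either the wild-type or a mutated form of the transcription factor VEZF1. The set held 10 genes of the 59608 read from the count table, taken by their symbols, and all 10 were found. It comprised the epithelial genes CDH1, KRT8, KRT18 and KRT19, the mesenchymal genes CDH2, VIM and FN1, and the mesenchymal regulators SNAI1, SNAI2 and ZEB1. HepG2 cells are a line grown from a human liver tumour. In all 6 libraries the endogenous VEZF1 gene had been silenced with an sgRNA delivered by lentivirus. A re-expressed form then replaced it, VEZF1-WT in 3 libraries and VEZF1-2A in the other 3. VEZF1-2A has alanine in place of neighbouring serines, which are among the candidate sites that the paper lists for the O-GlcNAc sugar. The paper reports that this form carried markedly less of the sugar and had a shorter half-life as a protein. The comparison of the forms addresses whether the exchange of these serines goes with a different expression of the marker genes. No library of cells without re-expression, and none of unedited HepG2 cells, was part of the comparison, and the sources used here do not state whether the cells were of 1 clone.

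Epithelial cells hold to their neighbours through E-cadherin, the product of CDH1, and carry a keratin skeleton. In an epithelial to mesenchymal transition, factors of the SNAI and ZEB families bind E-box sequences and repress CDH1, while N-cadherin (CDH2), vimentin (VIM) and fibronectin (FN1) become abundant, and cells move more freely. In the liver the split is less strict, since hepatocytes make fibronectin for the blood plasma and carry N-cadherin beside E-cadherin, and since KRT8 and KRT18 are the keratins of hepatocytes while KRT19 marks bile duct cells and progenitors. VEZF1 is a zinc finger protein that binds runs of G in DNA.

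The libraries held from 28756765 to 57199396 counts, and the 10 genes together took from 1.17% to 1.42% of them. VEZF1 itself, whose endogenous and re-expressed RNA are counted together, was at 59.2, 45.5 and 39.9 CPM (counts scaled to a common library size with edgeR's TMM factors) in the VEZF1-WT libraries and at 46.1, 48.5 and 38.8 CPM in the VEZF1-2A libraries. These overlap, and gene counts do not tell the forms apart. The labels give 3 samples of each form and do not say whether they are separate cultures, so p-values measure the spread between these samples. Replicate 3 of VEZF1-WT and replicate 3 of VEZF1-2A stood apart from the other 4 libraries, with a score of 7.58 each on a first principal component that took 65.7% of the variance, where the others lay from -5.89 to -0.76. Liver genes were abundant in every library, and the summed level of 9 hepatocyte and hepatoma markers, among them ALB and AFP, ranged from 3360 to 4435 CPM per kb in VEZF1-WT and from 3177 to 4245 in VEZF1-2A. The 7 bile duct markers, which hold KRT19, summed to between 720 and 909 CPM per kb. The 9 fibroblast and stellate cell markers summed to between 9.54 and 13.2 CPM per kb over all libraries, nearly all of it ACTA2, with LUM at 0 counts in every library. The 6 endothelial markers summed to between 0.307 and 0.584 CPM per kb. The 6 leukocyte markers summed to between 361 and 436 CPM per kb, nearly all of it LYZ and CD68, while PTPRC, which defines leukocytes, had at most 0.0132 CPM per kb.

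The following stretches of promoter sequence are shown because they lie before the start sites of the mesenchymal markers with the lowest and the highest level in these cells, VIM and FN1. Each holds the 250 bases before a start site that RefSeq gives on GRCh38.p14, and capitals mark a run of 6 G or 6 C.
VIM, chr10:17227991-17228240, plus strand: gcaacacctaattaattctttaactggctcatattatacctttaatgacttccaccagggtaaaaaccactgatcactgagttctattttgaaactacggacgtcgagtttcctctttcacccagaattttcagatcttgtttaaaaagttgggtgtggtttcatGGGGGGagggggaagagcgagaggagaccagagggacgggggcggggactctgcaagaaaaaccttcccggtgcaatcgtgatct
FN1, chr2:215436069-215436318, minus strand: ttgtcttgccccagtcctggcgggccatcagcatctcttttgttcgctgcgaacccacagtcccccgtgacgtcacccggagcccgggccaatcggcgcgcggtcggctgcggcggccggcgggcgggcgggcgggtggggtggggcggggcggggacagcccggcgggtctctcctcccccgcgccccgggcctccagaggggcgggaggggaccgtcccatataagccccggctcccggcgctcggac
The VIM stretch is 46% G and C, and the FN1 stretch is 76.4%, against a median of 58% over 35116 promoters of the same length. The motif GGGGGG, searched on both strands, was in the VIM stretch and not in that of FN1, and 17.6% of all promoters held it. Shorter runs of G and of C were in the FN1 stretch, so this contrast depends on the length of 6. The E-box CAGGTG, searched on both strands, was in neither, and 17.5% of all promoters held it. Promoters were at hand for 5 of the 10 genes, with 12 start sites in all, most of them of ZEB1. The G run was at 4 of the 12, all of VIM or ZEB1, and the E-box at 2, both of ZEB1. CDH1, KRT18, KRT19, SNAI1 and SNAI2 had no entry. A match is a string of letters and does not show that a factor binds there.

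The 10 genes differed widely in level. To compare genes, the CPM of each was divided by the exon length in the table, which gives CPM per kb. Values here are means over all 6 libraries with their SD (n = 6). KRT8, the type II keratin of simple epithelia, was the most abundant with 586.5 ± 27.5 CPM per kb, rank 69 among all genes read. KRT19 followed with 496.5 ± 69.9 CPM per kb, and its range overlapped that of KRT8. FN1 had 378.5 ± 27.4 CPM per kb and KRT18, the type I partner with which KRT8 forms filaments, had 315.5 ± 10.1 CPM per kb. By CPM alone FN1 was the highest of the set, rank 11 of all genes. A mesenchymal marker in name thus stood between the keratins in these liver cells.

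A wide gap separated these 4 genes from the rest. ZEB1, the zinc finger repressor of CDH1, had 8.04 ± 0.538 CPM per kb, and CDH2 had 7.245 ± 0.395 CPM per kb, with overlapping ranges. CDH1 lay below both with 2.38 ± 0.278 CPM per kb and overlapped neither neighbour. SNAI1 had 0.436 ± 0.108 CPM per kb and SNAI2 had 0.202 ± 0.109 CPM per kb, again with overlapping ranges. VIM was last with 0.0163 ± 0.0167 CPM per kb, above 21.3% of the 38745 genes that had any count. In bulk RNA, fewer cells with a transcript and less of it in each cell cannot be told apart.

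The exon length in the table covers every annotated transcript, and for KRT8 it is 3.24 times that of the longest principal transcript in GENCODE release 29. The table was not made from that release throughout, and the span of 3 of the 10 genes, KRT8, KRT19 and ZEB1, is the same in both. With the principal transcript as length, which was tried after the values were seen, KRT8 had 1898 CPM per kb, KRT19 834, FN1 825 and KRT18 620. CDH2 then came before ZEB1, with 14.35 against 12.8 CPM per kb and overlapping ranges, and the ranges of KRT19 and FN1 overlapped as well. The order of the other genes was as before.

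VIM, an intermediate filament gene of mesenchymal cells on chromosome 10 from 17228241 to 17237593 (GRCh38, plus strand), was all but absent. The VEZF1-WT libraries, in the order of their numbers, held 4, 8 and 0 of its reads, and the VEZF1-2A libraries 4, 0 and 2. In each library between 81.0% and 83.1% of the low counts, 1 to 10, were even numbers, so the reads may be fewer fragments still. A count of 0 allows up to 3 fragments, which at 2 counts each is 6 counts, or 0.105 CPM in replicate 3 of VEZF1-WT and 0.152 CPM in replicate 2 of VEZF1-2A, for counting error only. VIM shares 641 bases of exon with VIM-AS1 on the other strand, which had from 0 to 9 reads, and no source used here says whether counting went by strand. VIM did not pass the filter on low counts, and no difference between the forms was detectable at this depth.

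CDH1 lies on chromosome 16 from 68737292 to 68835541, plus strand. In the order of the replicate numbers, the VEZF1-WT libraries had 12.8, 14.9 and 13.4 CPM and the VEZF1-2A libraries 14.5, 17.6 and 13.9 CPM. The groups overlapped, and replicate 2 was the highest library within each form. The log2 fold change of VEZF1-WT over VEZF1-2A was -0.17 (standard error 0.11, 95% interval from -0.41 to 0.07), where the quasi-likelihood test of edgeR gave an unadjusted p of 0.146 and, over all genes tested, an adjusted p of 0.9996. CDH1 shares 347 bases of exon with AC099314.1 on the opposite strand, which had 20.2% as many reads as CDH1.

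CDH2 (chromosome 18, from 27932879 to 28177946, minus strand) stood at 60.15, 57.6 and 63.2 CPM with VEZF1-WT and at 65.7, 60.4 and 66.1 CPM with VEZF1-2A. The 3 libraries of one form again overlapped those of the other. Its log2 fold change was -0.09 (standard error 0.06, 95% interval from -0.23 to 0.06). As a ratio of CPM per kb, CDH2 was above CDH1 in each of the 6 libraries, by 3.35, 2.76 and 3.35 times with VEZF1-WT and by 3.215, 2.44 and 3.39 times with VEZF1-2A. The ratio did not differ beyond its spread between the forms (p = 0.7, exact permutation test, two-sided; the smallest p of this design is 0.1). The mean ratio was 3.08, and with the principal transcripts as length it was 4.89. Per length, N-cadherin RNA therefore exceeded E-cadherin RNA in cells with either form.

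KRT8 (chromosome 12, from 52897187 to 52949954, minus strand) was counted at 3890, 4127 and 4015 CPM with VEZF1-WT and at 4374, 3907 and 3900 CPM with VEZF1-2A. KRT18, its neighbour on the plus strand from 52948871 to 52952906, was counted at 934, 972 and 976 CPM with VEZF1-WT and at 1023, 948.5 and 956 CPM with VEZF1-2A. Replicate 1 of VEZF1-2A was the highest library and replicate 1 of VEZF1-WT the lowest for both keratins. Their log2 fold changes were -0.02 (95% interval from -0.15 to 0.12) for KRT8 and -0.02 (95% interval from -0.14 to 0.10) for KRT18. The ratio of KRT8 to KRT18 per kb lay from 1.82 to 1.91 over the 6 libraries. Its mean of 1.86 rests on the exon lengths in the table, and it was 3.06 with the principal transcripts as length and 4.17 in CPM. These genes share 525 bases of exon on opposite strands, and reads there may have been given to either. Reads also fell on 51 genes named as pseudogenes of KRT8, together 2.93% as many as on KRT8, and on 67 of KRT18, 1.32% as many.

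KRT19 (chromosome 17, from 41523617 to 41528308, minus strand) varied more between libraries than KRT8 and KRT18. It reached 1132, 1311 and 1022 CPM with VEZF1-WT and 1397, 1118 and 979 CPM with VEZF1-2A. Replicate 3 was the lowest library within each form, and the highest library was 1.43 times the lowest. The log2 fold change between the forms was -0.01 (standard error 0.12, 95% interval from -0.29 to 0.26).

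FN1 (chromosome 2, from 215360440 to 215436073, minus strand) reached 6372, 6751 and 5960 CPM with VEZF1-WT and 7024, 6980 and 6013 CPM with VEZF1-2A. Replicate 3 was again the lowest within each form, and the groups overlapped. The log2 fold change was -0.07 (standard error 0.07, 95% interval from -0.23 to 0.09).

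Among the regulators, ZEB1 (chromosome 10, from 31318495 to 31529814, plus strand) was the one of appreciable level. It was at 70.8, 76.1 and 64 CPM with VEZF1-WT and at 73.15, 67.4 and 65.7 CPM with VEZF1-2A, with a log2 fold change of 0.03 (95% interval from -0.14 to 0.20). ZEB1 was the only gene of the 9 tested with a positive value, and its groups overlapped like those of the others. Its antisense neighbour ZEB1-AS1 had 2.52% as many reads.

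SNAI1 (chromosome 20, from 49982980 to 49988886, plus strand), which encodes the repressor Snail, rested on 40, 29 and 32 reads with VEZF1-WT and on 16, 41 and 22 with VEZF1-2A. SNAI2 (chromosome 8, from 48917598 to 48921740, minus strand), which encodes Slug, rested on 26, 32 and 16 reads with VEZF1-WT and on 22, 48 and 10 with VEZF1-2A. For both, the groups overlapped. In CPM, SNAI2 was 0.549, 0.897 and 0.284 with VEZF1-WT and 0.754, 1.2 and 0.301 with VEZF1-2A. Replicate 2 was the highest and replicate 3 the lowest within each form for SNAI2. Its log2 fold change was -0.45, with a 95% interval from -1.59 to 0.69 that spans from 0.331 to 1.61 times. For SNAI1 the interval reached from -0.76 to 0.67 around a log2 fold change of -0.04. The intervals of both SNAI genes are thus wide enough to hold a difference of 1.5 times in either direction.

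**Figure D1:**
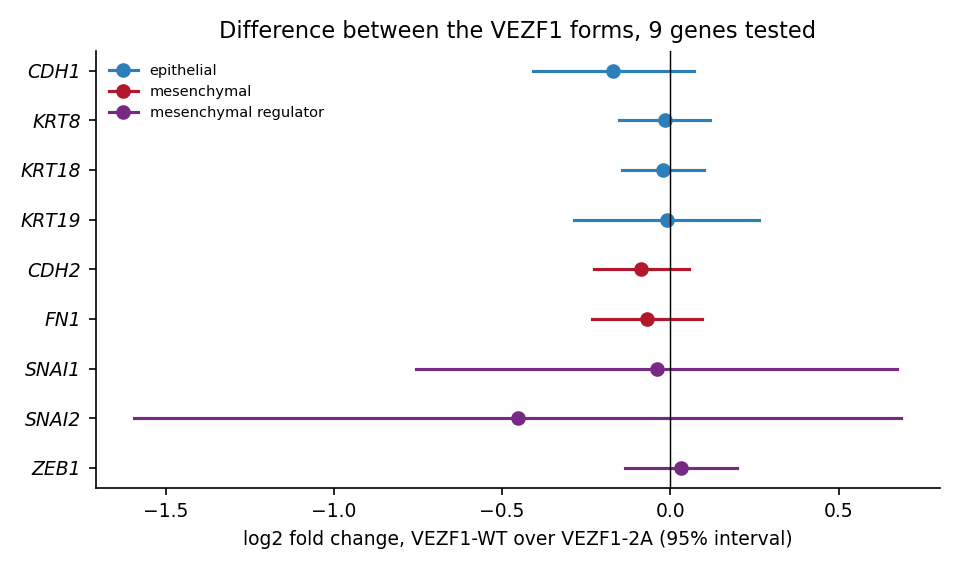
Log2 fold change of VEZF1-WT over VEZF1-2A with its 95% interval for the 9 marker genes tested, coloured by class. Every interval crosses 0; those of SNAI1 and SNAI2 are the widest, and that of SNAI2 runs from -1.59 to 0.69.

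Of the 9 genes tested, 0 had an adjusted p under 0.05, and 0 had an unadjusted p under 0.05, with edgeR as with DESeq2. Over all 19111 genes tested, 0 passed the adjusted threshold with edgeR and 3 with DESeq2, and 408 (2.13%) had an unadjusted p under 0.05 with edgeR. Deviations from the form means correlated between same-numbered libraries, with r of 0.264, 0.393 and 0.8 for numbers 1, 2 and 3. Replicate 2 of VEZF1-WT, however, correlated best with replicate 1 of VEZF1-2A (r of 0.709), so pairing by number was not shown. With the replicate number as a block, 6 genes passed the adjusted threshold and 825 the unadjusted one, none of them among the 9. Leaving out replicate 3 of VEZF1-2A raised the unadjusted count to 973 genes, again with 0 of the 9. In none of the 9 genes did the groups separate, which 7.38% of all genes tested did. The median log2 fold change of the 9 was -0.04, where that of all genes was 0.00, and 8 of the 9 lay below 0, as did 49.9% of all genes tested. The intervals bound what was missed, since those of KRT8, KRT18, KRT19, CDH2, FN1 and ZEB1 stayed within 0.82 to 1.2 times and that of CDH1 within 0.753 to 1.05 times.

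The libraries numbered 3, which stood apart from the rest, were below the mean of the others of their form in both forms for CDH1, KRT19, FN1, SNAI1, SNAI2 and ZEB1, 6 of the 9 genes, and above it in both for CDH2. Of all genes tested, 31.2% were below in both and 34.4% above in both. Differences and SD in this paragraph were taken on log2 of CPM plus 0.1, which makes differences between low values smaller. On that scale, replicate 3 of SNAI2 differed from the mean of replicates 1 and 2 by -1.07 in VEZF1-WT and -1.39 in VEZF1-2A. For KRT19 the difference was -0.25 and -0.35. CDH2 differed the other way, by 0.10 and 0.07. The within-form SD on the same scale was 0.05 for KRT18 and 0.07 for KRT8 and CDH2, against a median of 0.15 over all genes tested. SNAI2 with 0.78 was more variable than 99% of them, but it had only 10 to 48 reads per library. How much of its spread, and of its replicate 3 differences, is counting noise was not tested. What sets these libraries apart was not tested. When both were left out, the log2 fold changes of the 9 genes lay between -0.48 (SNAI2) and 0.06 (ZEB1), again with 0 at an unadjusted p under 0.05.

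**Figure D2:**
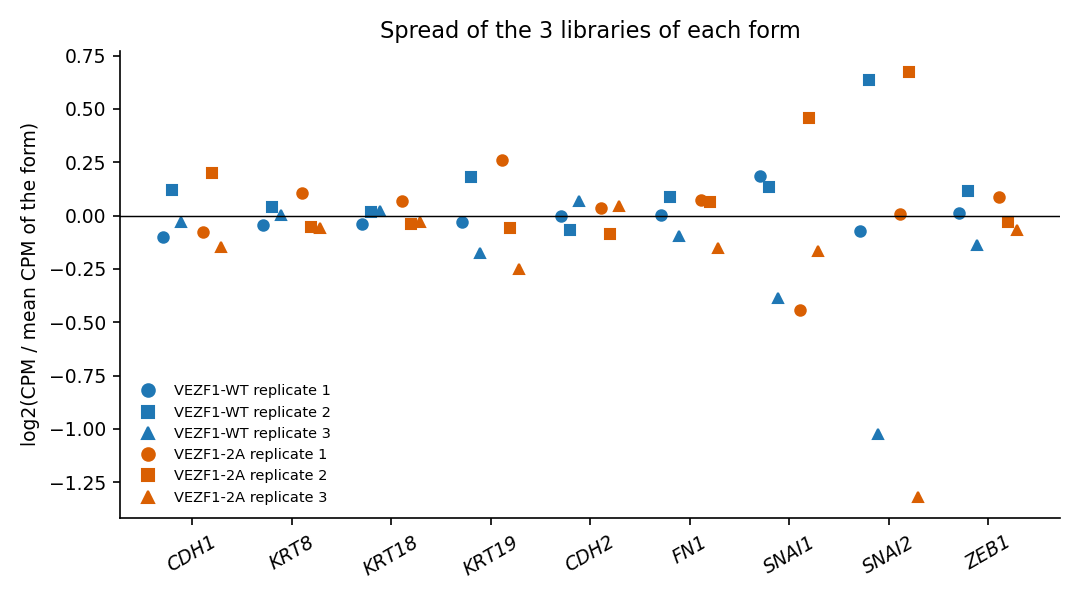
Deviation of each library from the mean CPM of its own form (log2, nothing added to CPM), for the 9 marker genes tested. Blue is VEZF1-WT, orange is VEZF1-2A, and marker shape is the replicate number. Triangles, replicate 3, lie lowest in both forms for KRT19, FN1, SNAI2 and ZEB1 and highest in both for CDH2, and the points of SNAI2 spread the widest.

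Other genes of the epithelial and mesenchymal programmes were read from 6 lists, which hold 135 genes beside the markers, 101 of them tested. In all, 3 of the 101 had an unadjusted p under 0.05, each lower in VEZF1-WT, and 0 had an adjusted p under 0.05 with edgeR. Over all genes tested, 0.832% had an unadjusted p under 0.05 and were higher in VEZF1-WT, and 1.3% were lower. With the replicate number as a block, 8 of the list genes had an unadjusted p under 0.05, where 4.32% of all genes tested in that fit did. Without replicate 1 of VEZF1-WT there were 0 such list genes (1.51% of all genes), and without replicate 2 of VEZF1-WT there were 5 (2.41%). Without replicate 2 of VEZF1-2A there was 1 (1.78%), and without replicate 3 of VEZF1-2A there were 11 (4.89%). There were 3 without replicate 3 of VEZF1-WT (2.27%) and 3 without replicate 1 of VEZF1-2A (2.38%).

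Of 32 genes of epithelial junctions, 28 were tested, with a median log2 fold change of -0.01. DSP, the desmosomal plaque protein, had 257.5 CPM per kb and EPCAM, an epithelial adhesion molecule, had 136 CPM per kb, so that both far exceeded CDH1. In CPM, EPCAM was 328 ± 11.8 with VEZF1-WT and 333.5 ± 4.27 with VEZF1-2A (SD, n = 3). CLDN14, a claudin of tight junctions, was the one gene of the list with an unadjusted p under 0.05. It was at 0.211, 0.3365 and 0.195 CPM with VEZF1-WT and at 0.48, 0.449 and 0.422 CPM with VEZF1-2A, without overlap, on 79 reads in all. Its log2 fold change was -0.89 (edgeR, unadjusted p = 0.0422, adjusted p = 0.9996). RAB25 had 0 reads in every library. The groups were separate for 4 of the 28, against 7.38% of all genes tested. In the lists that follow they were separate for 0 of 10 epithelial regulators, 0 of 9 other keratins, 2 of 21 mesenchymal structural genes, 1 of 11 transcription factors and 1 of 22 genes of the TGF-beta pathway.

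Epithelial regulators were present in part. HNF4A, the liver nuclear receptor, had 18.9 CPM per kb and OVOL2, a repressor of the mesenchymal programme, had 12.3 CPM per kb. Of 14 regulators, 10 were tested, with a median log2 fold change of 0.01 and 0 at an unadjusted p under 0.05. GRHL2 and OVOL1 had 2 reads each over all libraries, and ESRP1, a splicing factor of epithelia, had 14 where its relative ESRP2 had 6474.

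Among 14 other keratins, 9 were tested and 0 had an unadjusted p under 0.05. KRT23 was the highest with 62.9 CPM per kb, well below the 3 keratins of the marker set, and KRT10 had 9.94 CPM per kb. KRT7, a keratin of bile duct cells like KRT19, had 188 reads in all against 276087 for KRT19.

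The list of mesenchymal structural genes had 21 of its 33 genes tested, with a median log2 fold change of -0.01. NES, which encodes the intermediate filament nestin, had 174 CPM per kb and was thus far more abundant than VIM. TPM2, a tropomyosin, was at 8.485, 9.7 and 8.615 CPM with VEZF1-WT and at 12, 10.4 and 9.76 CPM with VEZF1-2A. These did not overlap (log2 fold change -0.26, edgeR, unadjusted p = 0.0349, adjusted p = 0.9996). The fibrillar collagen genes COL1A1, COL1A2 and COL3A1 had 264, 6 and 23 reads over all libraries, and POSTN, FAP, DCN and LUM had at most 4.

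Of 20 further transcription factors linked to the transition, 11 were tested. TWIST1 had 0 reads in every library, and TWIST2 and PRRX1 had 2 each. ZEB2, the relative of ZEB1, had 626 reads in all against 16691 for ZEB1. The most abundant factors were SOX9 with 29.3 CPM per kb and SOX4 with 23.6 CPM per kb, neither with an unadjusted p under 0.05. ID2, an inhibitor of basic helix-loop-helix factors, was at 24.5, 26.8 and 22.55 CPM with VEZF1-WT and at 28.4, 35.1 and 25.4 CPM with VEZF1-2A. These overlapped (log2 fold change -0.27, edgeR, unadjusted p = 0.0364, adjusted p = 0.9996).

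TGF-beta is a secreted inducer of the transition in hepatocytes. All 22 genes of its pathway list were tested, with a median log2 fold change of -0.02 and 0 at an unadjusted p under 0.05. TGFB1, the ligand, was at 59.4 ± 3.27 CPM with VEZF1-WT and 60 ± 4.75 CPM with VEZF1-2A (SD, n = 3). Its receptor TGFBR2 was at 134 ± 2.89 CPM with VEZF1-WT and 135 ± 7.41 CPM with VEZF1-2A (SD, n = 3).

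**Figure D3:**
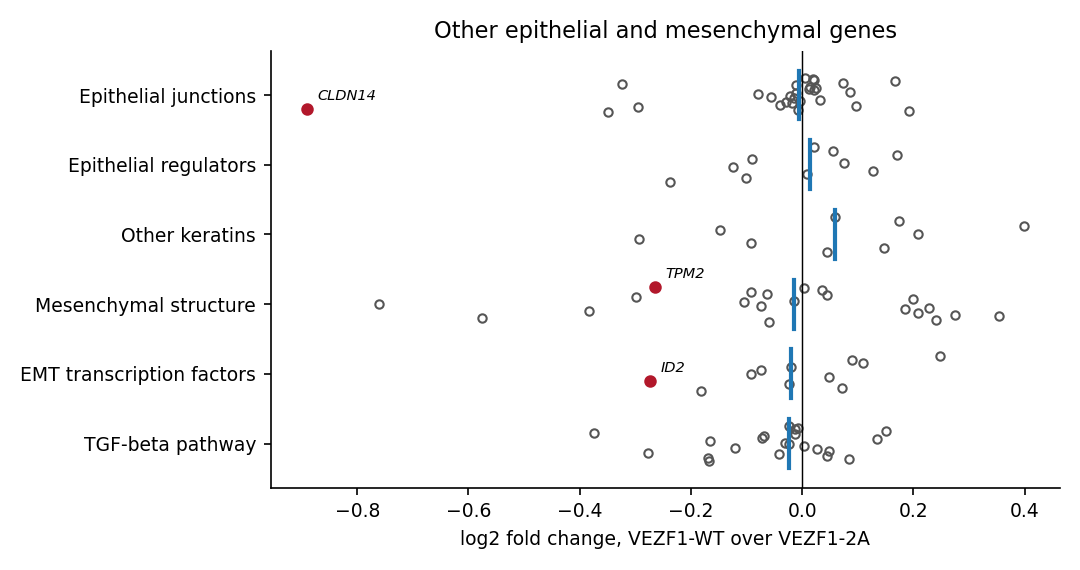
Log2 fold change of VEZF1-WT over VEZF1-2A for the tested genes of 6 lists, 1 circle per gene, with the list median as a blue bar; filled circles have an unadjusted p under 0.05 and are named. The medians lie between -0.02 and 0.06, and CLDN14, TPM2 and ID2 are the 3 filled circles, all below 0.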

How the data were processed

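RNA-seq was read for 6 HepG2 libraries, grouped by their labels. The authors deposited 1 table of raw read counts per gene without normalization. The submitters' processing notes name GRCh38, while the aligner, counting program, annotation release and strand setting are not given in the sources used here. The table has 59613 lines, of which 5 that split the record of ANK2 were dropped. The test was edgeR 4.0.16 under R 4.3.3 (filterByExpr, minimum count 10 and total 15; TMM; glmQLFit and glmQLFTest, group alone, two-sided), with Benjamini-Hochberg adjustment over 19111 genes. Standard errors were the log2 fold change over the root of F, and 95% intervals used the moderated degrees of freedom. The exact permutation test of CDH2 over CDH1 used the log2 of the ratio of CPM per kb. The replicate number was also fitted as a block, as an alternative. Same-numbered libraries correlated in their deviations from the group means (r of 0.264, 0.393 and 0.8 over 5000 genes). Deviations within a form cancel out, so the r of number 3 raises those among numbers 1 and 2 and cannot show pairing by number. Replicate 2 of VEZF1-WT correlated best with replicate 1 of VEZF1-2A (0.709). Libraries of one form differed by more than sampling noise (chi-square over its degrees of freedom from 6.93 to 27.7). The fit was tested on simulated counts. Genes named are the 10 markers and, in each list, the 2 of highest level per kb and those with an unadjusted p under 0.05; genes named for low counts, and ESRP2, KRT7 and ZEB2, were chosen after their values were seen. A gene that this rule names is not reported here. The markers and lists were chosen with earlier results of these data known. Alternatives were other scalings, filters and tests (DESeq2 1.42.0, limma 3.58.1), libraries left out, mitochondrial genes left out and counts halved. PALS1 was not found under that symbol. Plots were made in Python 3.11.15 (matplotlib 3.10.9).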

Additional observations from a re-analysis of the deposited data

How the results depend on the processing

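Of the 9 marker genes tested, 0 had an unadjusted p under 0.05 in any of 18 alternatives, with SNAI1 and SNAI2 in 17, since they did not pass a filter at 1 CPM. Of the 18, 2 were added after the values were seen (both libraries numbered 3 left out, with and without the block). CDH1, CDH2 and FN1 were lower in VEZF1-WT in each of the 18, and with single libraries left out they ranged from -0.24 to -0.05, from -0.13 to -0.05 and from -0.14 to -0.03. Without replicate 3 of VEZF1-2A the unadjusted p of edgeR was 0.0538 for CDH1 and 0.0526 for FN1, and the adjusted p was 0.921 for each. The sign turned for the other 6. KRT19 was 0.0006 with no filter on low counts. SNAI1 was 0.0413 with both libraries numbered 3 left out and 0.10 with the block as well. With single libraries left out, KRT8 ranged from -0.0466 to 0.0394, KRT18 from -0.0422 to 0.0132, KRT19 from -0.12 to 0.14, SNAI1 from -0.21 to 0.27, SNAI2 from -0.89 to 0.10 and ZEB1 from -0.0289 to 0.0946. The cause was not tested.

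Counts over all genes moved more. At an adjusted p under 0.05 there were 16 genes with no filter, 3 with DESeq2's test, 6 with the replicate block, 4 with both libraries numbered 3 left out and 10 with the block as well. At an unadjusted p under 0.05 these settings gave 896 of 38745, 219 of 19111, 825 of 19111, 833 of 19360 and 866 of 19360 genes tested. The main fit gave 408 of 19111. Leaving out single libraries gave from 292 of 19367 (1.51%, without replicate 1 of VEZF1-WT) to 973 of 19883 (4.89%, without replicate 3 of VEZF1-2A). List genes at that threshold numbered 7 with no filter, 8 with the block, 7 with both libraries numbered 3 left out and 6 with the block as well, against 3. With single libraries left out they numbered from 0 (without replicate 1 of VEZF1-WT) to 11 (without replicate 3 of VEZF1-2A). These counts moved along with those over all genes, and the fit with no filter also tested list genes too low for the main fit. CDH2 over CDH1 was 3.08 per kb, 4.33 in CPM and 4.89 with the principal transcript as length. KRT8 over KRT18 was 1.86, 4.17 and 3.06 in the same order. The block ended or made no call for a marker gene. The marker genes with the fewest reads were VIM, SNAI2 and SNAI1, with 18, 154 and 180 in all.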
